A study of Mus musculus with 6 samples.

Results

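The SLAM family is a group of lymphocyte surface receptors, and SAP, encoded by Sh2d1a, is the small adaptor that binds the tails of many of them. The members were taken by symbol: Sh2d1a, Slamf1, Slamf6, Slamf7, Ly9, Cd84, Cd48 and Cd244a (formerly Cd244). The set was selected on earlier results from these same arrays, in which Sh2d1a was among the genes that differed between the groups, so the change of every member is given as a description and the p-values place it in a fit over all genes without serving as an independent test. The 8 genes are among 12394 measured, and 12 probe sets read them, each annotated to that gene alone. Where a gene had several probe sets, the one with the highest mean stood for it, and the others are given beside it.

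Expression was measured on Affymetrix arrays in regulatory T (Treg) cells, which restrain immune responses, sorted as CD4+CD25+YFP+ cells from spleen and lymph nodes. The 3 arrays labelled GATA3KO came from Gata3F/F Foxp3YFP-Cre mice, whose Gata3 alleles both carry loxP sites. The 3 arrays labelled WT came from Gata3F/+ Foxp3YFP-Cre mice, which have 1 floxed and 1 intact allele and carry the same Cre, expressed from the Foxp3 locus. The WT arrays are therefore no measure of cells without Cre or with both Gata3 alleles intact. The design text gives 3 mice in each group; age and strain are not given in the sources used here. Values are log2 intensities after RMA, in which a difference of 1 is a doubling of signal.

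SLAM receptors mostly bind a receptor of their own kind on a neighbouring cell, while Cd244a binds Cd48. Cytoplasmic tyrosine motifs of many of these receptors recruit SAP, which brings in the kinase Fyn and competes with phosphatases such as those encoded by Ptpn6, Ptpn11 and Inpp5d. In mice and humans SAP is needed for NKT cell development and for lasting contact of follicular T cells with B cells, and its loss in humans causes an X-linked lymphoproliferative disease.

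The single Gata3 probe set read 9.83, 9.98 and 9.71 in arrays labelled GATA3KO and 9.57, 9.41 and 9.47 in arrays labelled WT. It was higher under the knockout label (log2 change 0.35 ± 0.07, SE; limma adjusted p = 0.0387; 0.15 without limma's intensity trend, and under 0.05 in 2 of 6 fits with 1 array left out). The sources used here do not say which part of the gene is deleted or whether the probe set lies in it, so the labels were not checked by it and every direction below rests on them. Array medians lay between 6.06 and 6.11, and precision is limited by having 3 arrays in each group. T cell genes (Cd3d, Cd3e, Cd3g, Cd4, Il2ra and Ctla4) read above the 40th percentile of gene means, 5.55, below which a gene is called dim here. Foxp3, the defining Treg gene, was dim, at 3.82 to 4.06 in arrays labelled GATA3KO and 3.85 to 3.94 in arrays labelled WT. In limma's fit 179 genes were higher and 95 lower in arrays labelled GATA3KO (adjusted p under 0.05), which is 2.21% of all genes, with 0.766% lower. With 3 arrays in each group the smallest p of an exact permutation test is 0.1, so calls rest on limma's pooled estimate of the spread. In bulk RNA, fewer cells that express a gene and less RNA of it per cell cannot be told apart.

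Of the 8 members, 1 gene, Sh2d1a, was called, and it was lower in arrays labelled GATA3KO. By limma 0 of the 7 receptor genes were called on the probe set that stood for them (2, Cd84 and Cd48, at an unadjusted p under 0.05). Of the 7, 6 had a higher mean in arrays labelled GATA3KO. The shares of all genes with an unadjusted p under 0.05 or with a higher mean are not given here. Such counts, here and below, therefore have no background beside them, and nothing is read from them. The sign turned for Ly9, Slamf7 and Cd244a in at least 1 of the fits with an array left out, and for Slamf1 on another choice of probe set. The median log2 change of the 7 receptors was 0.08, against 0.01 over all genes. With the sign ignored the median was 0.082 for the receptors and 0.079 over all genes. Among all 12 member probe sets 2 were called, that of Sh2d1a and the other one of Slamf6, where 1.69% of all 20393 single-gene probe sets were called. The groups were fully separated for 4 of the 8 members (Sh2d1a, Slamf6, Cd84 and Cd48), where 19.8% of all genes were fully separated. Nothing is read from these medians and shares, since the members were chosen with this comparison known.

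Sh2d1a, the gene of the adaptor SAP, read 9.46, 9.42 and 9.46 in arrays labelled GATA3KO and 9.86, 9.73 and 9.81 in arrays labelled WT. All arrays labelled GATA3KO lay below all arrays labelled WT, and the spread within either group was small beside the gap. The group means were 9.45 ± 0.03 in arrays labelled GATA3KO and 9.80 ± 0.07 in arrays labelled WT (SD, n = 3 each), so the signal was 1.28-fold lower under the knockout label. The log2 change was -0.35 ± 0.05 (SE; 95% interval -0.46 to -0.24; limma adjusted p = 0.00874 over all genes). Of all genes 3.45% had a change at least as large in either direction. The call was lost without the array GATA3KO replicate 2 (log2 change -0.34, adjusted p = 0.0558) and when limma's intensity trend was left out (adjusted p = 0.0733), with the direction kept.

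**Figure D1:**
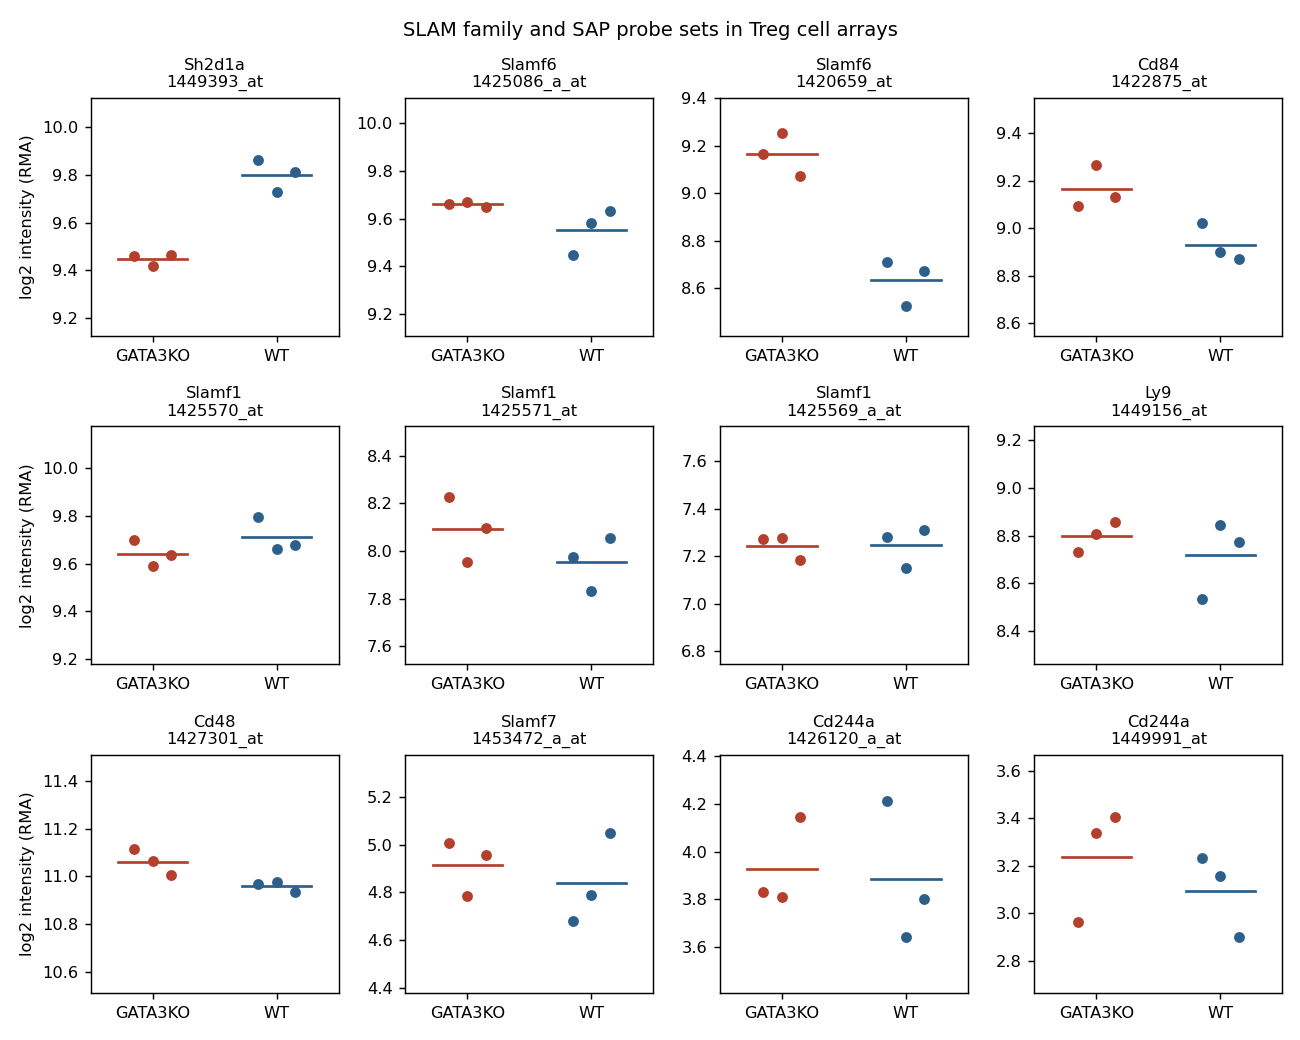
Log2 RMA intensity of the 12 probe sets of the SLAM family and SAP, with arrays labelled GATA3KO at left and arrays labelled WT at right in each panel. Each point is 1 array, lines are group means, and every panel spans 1 log2 unit. Sh2d1a is lower (means 9.45 and 9.80) and the Slamf6 probe set 1420659_at higher (means 9.16 and 8.64) under the knockout label, while most other panels overlap.

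Slamf6 (Ly108), a self-binding receptor of T and B cells that signals through SAP, was read by 2 probe sets that changed unequally. On 1425086_a_at, the brighter, it read 9.66, 9.67 and 9.65 in arrays labelled GATA3KO and 9.45, 9.58 and 9.63 in arrays labelled WT. The groups did not overlap there, but the nearest arrays were only 0.02 apart, and the log2 change of 0.11 ± 0.05 (SE; adjusted p = 0.423) was not called. On 1420659_at it read 9.17, 9.25 and 9.07 in arrays labelled GATA3KO and 8.71, 8.52 and 8.67 in arrays labelled WT. Here every array labelled GATA3KO lay well above every array labelled WT. The means were 9.16 ± 0.09 in arrays labelled GATA3KO and 8.64 ± 0.10 in arrays labelled WT (SD, n = 3 each), a 1.44-fold higher signal (log2 change 0.53 ± 0.07, SE; adjusted p = 0.00698 over all single-gene probe sets). The 95% interval of that change, 0.38 to 0.68, did not meet that of the brighter probe set, -0.02 to 0.23. Both intervals come from the same 6 arrays, and the difference between the probe sets was not tested. In Affymetrix naming the ending _a_at marks probes shared by alternative transcripts of a gene, and alternatively spliced forms of Slamf6 are known in mice; the place of the probe sets in the transcripts was not analysed here. The call on 1420659_at held whichever of the 6 arrays was left out, but not when limma's intensity trend was omitted (adjusted p = 0.0542).

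Cd84, a self-binding receptor that also signals through SAP, read 9.09, 9.26 and 9.13 in arrays labelled GATA3KO and 9.02, 8.90 and 8.87 in arrays labelled WT. The groups did not overlap, with a gap of 0.07 between the nearest arrays. The log2 change was 0.23 ± 0.06 (SE; 95% interval 0.09 to 0.37; 1.17-fold) and was not called (adjusted p = 0.101), while with array quality weights it was (0.27, adjusted p = 0.0258). Of all genes 9.63% had a change at least as large in either direction.

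**Figure D2:**
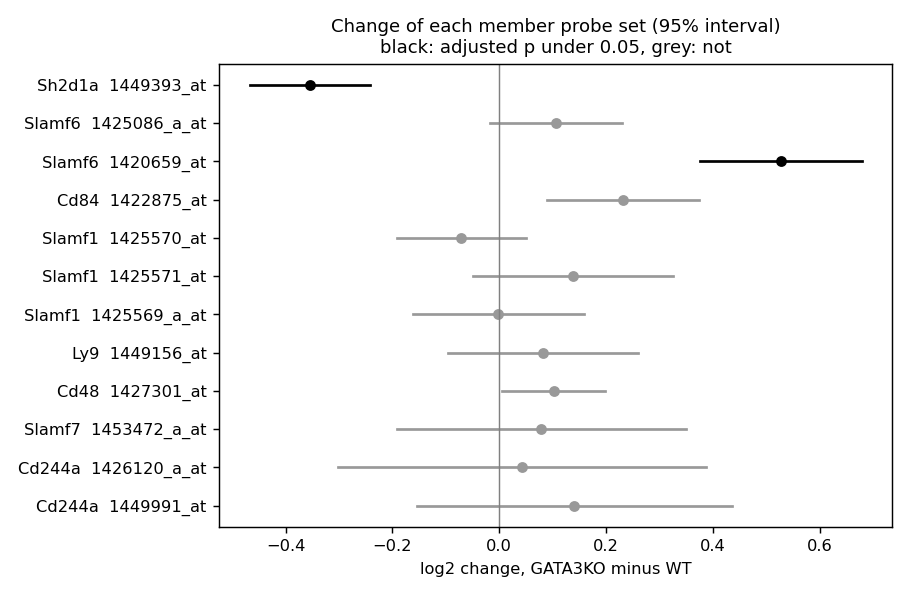
Log2 change, arrays labelled GATA3KO minus arrays labelled WT, of the 12 member probe sets with 95% intervals from limma's fit over 20393 single-gene probe sets. Only Sh2d1a (-0.35) and Slamf6 1420659_at (0.53) are drawn in black, for an adjusted p under 0.05; Slamf6 1425086_a_at (0.11) is not.

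Slamf1 (SLAM, CD150), the receptor after which the family is named, read 9.70, 9.59 and 9.63 in arrays labelled GATA3KO and 9.80, 9.66 and 9.68 in arrays labelled WT. The groups overlapped, and the log2 change was -0.07 ± 0.05 (SE; 95% interval -0.19 to 0.05). Its other probe sets, 1425571_at and 1425569_a_at, had changes of 0.14 ± 0.08 and -0.0018 ± 0.07 (SE), so the sign of the Slamf1 difference depended on the probe set and none was called. Ly9 (CD229), a large receptor of T and B cells, read 8.73, 8.81 and 8.86 in arrays labelled GATA3KO and 8.54, 8.85 and 8.77 in arrays labelled WT. The array WT replicate 1 was the lowest of the 6, and without it the change of 0.08 ± 0.08 (SE) became -0.0087.

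Cd48, a lipid-anchored surface protein that is the ligand of Cd244a and of Cd2, read 11.11, 11.06 and 11.01 in arrays labelled GATA3KO and 10.97, 10.98 and 10.93 in arrays labelled WT. The arrays labelled GATA3KO were all higher, by a log2 change of 0.10 ± 0.04 (SE; 95% interval 0.01 to 0.20) that was not called (adjusted p = 0.297). Cd2 itself, the T cell adhesion receptor related to the SLAM family, had a change of -0.03 ± 0.04 (SE).

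The receptors best known from NK cells and plasma cells were dim in both groups. Slamf7 (CRACC), which signals through a relative of SAP, read 5.01, 4.79 and 4.95 in arrays labelled GATA3KO and 4.68, 4.79 and 5.05 in arrays labelled WT. Cd244a (2B4), a receptor of NK cells and some cytotoxic T cells, read 3.83, 3.81 and 4.15 in arrays labelled GATA3KO and 4.21, 3.64 and 3.80 in arrays labelled WT. Both overlapped between groups, with log2 changes of 0.08 ± 0.12 and 0.04 ± 0.15 (SE). The other Cd244a probe set, 1449991_at, was dim as well, with a change of 0.14 ± 0.13 (SE). The 95% interval of the Cd244a change ran from -0.30 to 0.39. The relatives outside the set, Slamf8 (0.06 ± 0.09, SE) and Slamf9 (0.24 ± 0.12), found mainly on myeloid cells, were also dim and not called.

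The 7 receptor genes lie side by side on chromosome 1 in the order Cd244a, Ly9, Slamf7, Cd48, Slamf1, Cd84 and Slamf6, and Sh2d1a lies on the X chromosome (gene order from assembly GRCm38.p6). No other measured gene lay between the first and last receptor. Of the 6 measured neighbours of the cluster, 3 on each side, 0 were called by limma (1, Usf1, at an unadjusted p under 0.05), with log2 changes from -0.16 (Usf1) to 0.02 (Itln1). Around Sh2d1a 0 of 6 neighbours were called (2, Xiap and Stag2, at an unadjusted p under 0.05), with changes from -0.18 (Xiap) to 0.19 (the dim Tenm1). Xiap, the gene of an apoptosis inhibitor whose loss in humans also causes an X-linked lymphoproliferative disease, read 10.26, 10.44 and 10.39 in arrays labelled GATA3KO and 10.46, 10.60 and 10.57 in arrays labelled WT. Those groups did not overlap either, but the change of -0.18 ± 0.06 (SE) was not called (adjusted p = 0.173). Stag2, a cohesin subunit gene next to Sh2d1a, had a change of -0.14 ± 0.04 (SE; adjusted p = 0.151).

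**Figure D3:**
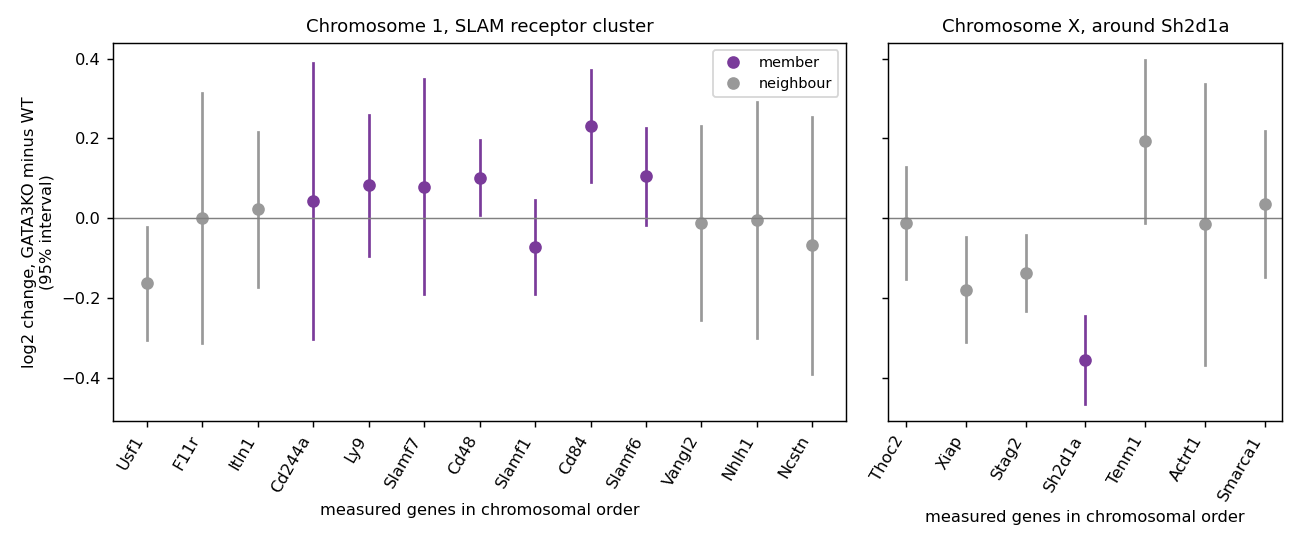
Log2 change, arrays labelled GATA3KO minus arrays labelled WT, with 95% intervals for measured genes in chromosomal order around the SLAM cluster (left) and Sh2d1a (right). Purple points are the 8 members and grey points their neighbours, and equal steps on the x axis are genes, not distances. Cd84 (0.23) is the highest point of the cluster, and Sh2d1a (-0.35) the lowest of both panels.

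Upstream sequence is shown for Slamf6 and Cd84, adjacent receptors with the highest changes among the receptor genes, and for Slamf1 beside them, whose groups overlapped. Each run is the first 250 bases of the RefSeq promoter window, ending at the annotated gene start (GRCm38.p6), and is written 5′ to 3′ on the gene's strand. Capitals mark a 6-letter GATA-type motif, which is GATA with either A or T before it and either A or G after it, searched on both strands; Gata3 belongs to the family that binds such motifs.
Slamf6 (chr1:171917212-171917461, + strand): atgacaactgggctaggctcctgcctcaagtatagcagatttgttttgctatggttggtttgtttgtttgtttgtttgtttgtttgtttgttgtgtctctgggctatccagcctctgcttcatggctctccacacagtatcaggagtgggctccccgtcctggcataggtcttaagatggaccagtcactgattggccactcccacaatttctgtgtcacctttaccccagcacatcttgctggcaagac
Cd84 (chr1:171839447-171839696, + strand): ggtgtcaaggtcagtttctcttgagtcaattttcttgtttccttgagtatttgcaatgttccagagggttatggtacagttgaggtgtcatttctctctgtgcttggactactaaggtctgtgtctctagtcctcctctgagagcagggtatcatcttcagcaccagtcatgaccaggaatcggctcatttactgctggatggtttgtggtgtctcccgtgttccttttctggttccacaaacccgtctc
Slamf1 (chr1:171766882-171767131, + strand): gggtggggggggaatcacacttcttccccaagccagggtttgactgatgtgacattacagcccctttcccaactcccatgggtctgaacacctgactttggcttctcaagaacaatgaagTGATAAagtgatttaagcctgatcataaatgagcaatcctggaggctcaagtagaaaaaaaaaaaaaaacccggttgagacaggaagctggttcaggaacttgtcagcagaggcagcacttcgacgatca

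Promoter windows matched 6 of the 8 members. Sh2d1a and Ly9 had no window and were not searched. Of the 6 windows 1, that of Slamf1, held a motif, TGATAA starting at base 121. Over all 32851 windows of that length 26.5% held at least 1. A match is a run of letters and not a binding site, and windows without one say nothing about Gata3 at these genes.

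Among genes that act with SAP and the SLAM receptors, 2 of 16 measured were called, both higher in arrays labelled GATA3KO, with 0 lower, where 2.21% of all genes were called. The list's median change was -0.0032, against 0.01 over all genes, and like all lists here it was drawn up with earlier results of these arrays known. Fyn, the Src-family kinase that SAP recruits, read 10.81, 10.72 and 10.67 in arrays labelled GATA3KO and 10.51, 10.36 and 10.39 in arrays labelled WT. The groups did not overlap, and Fyn was thus higher (log2 change 0.32 ± 0.05, SE; limma adjusted p = 0.0198) where Sh2d1a was lower. Its other probe set had a change of 0.18, which was not called. The Fyn call was lost without GATA3KO replicate 2 (adjusted p = 0.0851), WT replicate 2 (0.106) or WT replicate 3 (0.0639), and without the intensity trend (0.123).

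Ptpn11, the gene of the phosphatase SHP-2, read 9.73, 9.59 and 9.69 in arrays labelled GATA3KO and 9.40, 9.22 and 9.43 in arrays labelled WT. It was higher in every array labelled GATA3KO (log2 change 0.32 ± 0.06, SE; adjusted p = 0.0377), and a further probe set above the dim level had a change of 0.40 that was not called. The Ptpn11 call held in 1 of 6 fits with 1 array left out, only that without WT replicate 1. It was also lost with the mean of all probe sets (0.23, adjusted p = 0.303), with the most variable probe set (adjusted p = 0.119) and without the intensity trend (0.149). Nck1, an adaptor of actin signalling (-0.23 ± 0.06, SE; adjusted p = 0.0926), and Prkcq, the kinase PKC-theta that SAP and Fyn engage in helper T cells (-0.18 ± 0.05; 0.118), were not called. The other Nck1 probe set, also above the dim level, had a change of only -0.03. The SLAM-linked phosphatase genes Ptpn6 and Inpp5d had changes of 0.07 and -0.06.

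Of 18 measured genes of follicular helper and follicular regulatory T cells, in which SAP is required, 2 were called and both were higher, with 0 lower, against 2.21% of all genes called. The median change was 0.06. Cxcr5, the receptor that directs cells to B cell follicles, read 8.89, 9.20 and 8.92 in arrays labelled GATA3KO and 8.48, 8.41 and 8.50 in arrays labelled WT. All arrays labelled GATA3KO were higher (log2 change 0.54 ± 0.08, SE; limma adjusted p = 0.0116), so Cxcr5 and Sh2d1a changed in opposite directions. The Cxcr5 call was lost without WT replicate 2 (adjusted p = 0.07) and without the intensity trend (0.0714). Tnfsf8, the gene of CD30 ligand, also rose (0.36 ± 0.06, SE; adjusted p = 0.0184), with the call lost without GATA3KO replicate 2 (0.0849), WT replicate 2 (0.0744) or the intensity trend (0.104). Icos, a costimulatory receptor (0.35 ± 0.09, SE; adjusted p = 0.0831), was not called on the probe set that stood for it, though its other probe set was, with a change of 0.32. Bcl6, the master regulator of follicular T cells, had a change of -0.17 (adjusted p = 0.304), and Il21, a cytokine of follicular helper cells, of 0.29 (0.248).

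**Figure D4:**
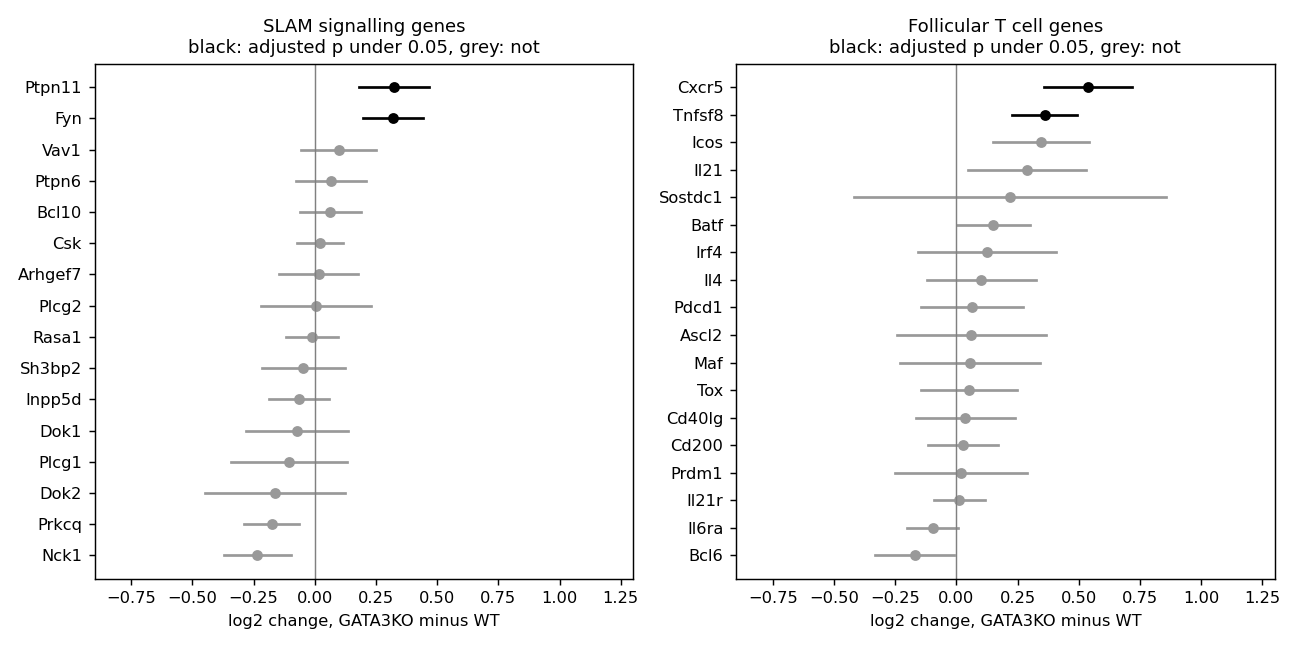
Log2 change, arrays labelled GATA3KO minus arrays labelled WT, with 95% intervals for 16 SLAM signalling genes (left) and 18 follicular T cell genes (right), ordered by change. Ptpn11 (0.32), Fyn (0.32), Cxcr5 (0.54) and Tnfsf8 (0.36) are black, for an adjusted p under 0.05, and the rest are grey.

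Of 6 measured genes of NKT and other innate-like T cells, whose development needs SAP, 1 was called, and it was lower, where 2.21% of all genes were called and 0.766% were called lower. Tbx21, the gene of the transcription factor T-bet, read 5.98, 5.85 and 6.16 in arrays labelled GATA3KO and 6.63, 6.77 and 6.51 in arrays labelled WT. It fell (log2 change -0.63 ± 0.10, SE; adjusted p = 0.0184), with the call lost without GATA3KO replicate 2 (0.0824), WT replicate 2 (0.105) or the intensity trend (0.0581). Klrk1, the gene of the NK and T cell receptor NKG2D, had a change of -0.57 ± 0.17 (SE) that was not called (adjusted p = 0.121). Cd1d1, the gene of the molecule that presents lipids to NKT cells (0.09 ± 0.09, SE; adjusted p = 0.691), and Eomes, the gene of a T-box relative of T-bet (dim, -0.10 ± 0.11; 0.765), were not called. The other Cd1d1 probe set had a change of 0.16 and was not called either. Zbtb16, the defining transcription factor of NKT cells, was dim, with a change of -0.04. Klrk1 and Eomes are also counted among the NK cell markers below, so those lists are not separate.

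The genes whose values over the 6 arrays lay nearest to those of Sh2d1a, after each was centred on its mean, were Nr3c1, St8sia4, Rbl2, Itm2a and Klf3. Likeness was the root mean square difference over the 6 arrays among 7435 other genes that are not dim, and it lay between 0.03 and 0.05. Nr3c1 encodes the glucocorticoid receptor, St8sia4 a polysialic acid synthase, Rbl2 the retinoblastoma relative p130 and Klf3 a transcriptional repressor of the Klf family. Nr3c1, the nearest, read 9.44, 9.30 and 9.38 in arrays labelled GATA3KO and 9.78, 9.63 and 9.70 in arrays labelled WT. Like Sh2d1a, all 5 read lower in every array labelled GATA3KO than in any labelled WT, with log2 changes from -0.41 to -0.33, which the choice by likeness fixes. St8sia4, at -0.41, had another probe set above the dim level with a change of -0.12 that was not called. Each of the rest had 1 further probe set that was called. For Nr3c1 and Klf3 it was 1 of 2, and those of Klf3 had changes of -0.51 and -0.29. With 1 array left out the Nr3c1 call held in 2 of 6 fits and that of Rbl2 in 4. The calls of the others held in all 6.

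Markers of other cells that carry SLAM receptors were read beside Cd84, Cd48 and Slamf6, which B and myeloid cells also express. Of 11 measured myeloid and dendritic cell markers 9 had a positive change and 0 were called by limma (3 at an unadjusted p under 0.05). Of these 11, 7 were dim. The summed intensity of all 11 on the linear scale lay between 462 and 650 in arrays labelled GATA3KO and between 390 and 473 in arrays labelled WT. Those ranges overlapped. Of 6 neutrophil markers all had a positive change, all were dim and 0 were called (2 at an unadjusted p under 0.05), with sums of 160 to 310 in arrays labelled GATA3KO and 134 to 156 in arrays labelled WT. The largest of these changes was that of S100a9, 1.10 ± 0.31 (SE; limma adjusted p = 0.113). Lyz2, a lysozyme of myeloid cells, read 6.55, 7.44 and 7.60 in arrays labelled GATA3KO and 6.54, 5.79 and 6.19 in arrays labelled WT, so GATA3KO replicate 1 was close to WT replicate 1. The Lyz2 groups did not overlap, and its change of 1.02 ± 0.26 (SE; limma adjusted p = 0.0849) was not called. The Cd84 change was 0.27, 0.18 and 0.25 (SE 0.07 each) without GATA3KO replicates 1, 2 and 3 in turn. Its relation to the myeloid markers was not tested.

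Of 9 B cell markers 1, Cd22, was called and was higher, 5 had a positive change (median change 0.0031), and 6 were dim, among them the defining genes Pax5, Ebf1 and Cd79a. The sums of all 9 were 561 to 641 in arrays labelled GATA3KO and 428 to 446 in arrays labelled WT. Cd22, an inhibitory receptor of B cells, read 7.99, 8.31 and 8.08 in arrays labelled GATA3KO and 7.21, 6.90 and 6.82 in arrays labelled WT (log2 change 1.15 ± 0.11, SE; adjusted p = 0.00152). Without Cd22 the sums of the other 8 overlapped, at 306 to 325 in arrays labelled GATA3KO and 298 to 317 in arrays labelled WT. Cd22 was left out because it was called, so that overlap is no test and nothing is read from it. Ms4a1, the gene of CD20, had a change of -0.40, Cd79a of -0.20 and Fcer2a of -0.19, while Cd79b, which was not dim, had 0.23. None of these was called, and 2 of the 9, Cd22 and Cd79b, had an unadjusted p under 0.05 by limma. NK cell markers had sums of 591 to 673 in arrays labelled GATA3KO and 666 to 742 in arrays labelled WT, with 0 of 6 called (2 at an unadjusted p under 0.05). Of the T and Treg cell, CD8 T cell, plasma cell and erythroid and platelet markers 0 of 10, 0 of 2, 0 of 4 and 0 of 4 were called by limma, and 5, 0, 2 and 0 had an unadjusted p under 0.05. Positive changes numbered 9, 2, 2 and 2 in the same order, and 3 among the NK cell markers. The plasma cell marker Jchain, which was not dim, had a change of -0.78 ± 0.26 (SE; limma adjusted p = 0.179). Tnfrsf17, a dim plasma cell marker, had 0.35, and the NK cell marker Klrd1 -0.71 ± 0.23 (SE; limma adjusted p = 0.177). The part of these cells in the member values was not tested.

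**Figure D5:**
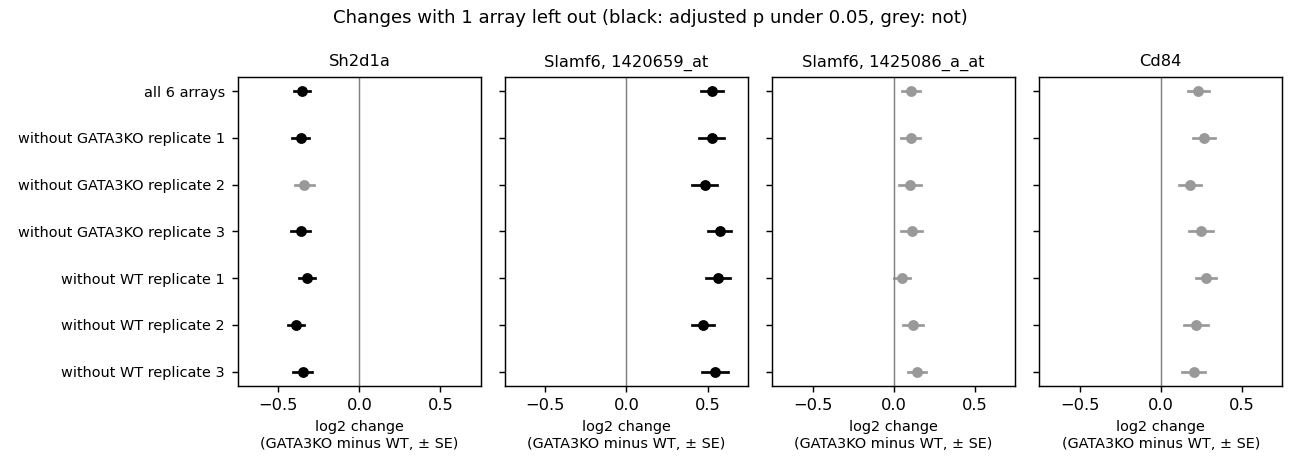
Log2 change (arrays labelled GATA3KO minus arrays labelled WT, bars ± SE) of Sh2d1a, both Slamf6 probe sets and Cd84 in all 6 arrays and with each array left out. Black marks an adjusted p under 0.05. Sh2d1a stays between -0.39 and -0.32 and is grey only without GATA3KO replicate 2, Slamf6 1420659_at stays between 0.47 and 0.57, and Cd84 is grey in every fit.

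With each array left out in turn the Sh2d1a change lay between -0.39 and -0.32 and the call held in 5 of 6 fits. The change of Slamf6 1420659_at lay between 0.47 and 0.57, and that of Cd84 between 0.18 and 0.28 with 0 of 6 called by limma.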

How the data were processed

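Total RNA from sorted Treg cells was isolated with Trizol and biotin-labelled as cRNA for Affymetrix arrays, per the labels' protocols. Each probe set's deposited log2 intensity was made by the authors with RMA (background correction, quantile normalization, probe summary), per the submitters' processing notes. The log2 scale was taken from the values' range. No scanner files or batches were used here. Of 22690 probe sets 20393 named 1 gene in the platform annotation, and 691 with several genes and 1606 unnamed were left out. The brightest probe set stood for each of 12394 genes. Groups came from array titles, and no label states that equal numbers pair mice.

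Groups were compared with limma 3.58.1 in R 4.3.3 (lmFit, eBayes with an intensity trend, two-sided, Benjamini-Hochberg over all genes, threshold 0.05), with no filter on dim genes. Further probe sets were read from a separate fit with the same settings over all single-gene probe sets, with its own adjustment of p. Sh2d1a had a limma adjusted p of 0.0102 in that fit. The fit was tested on simulated data. Members and lists were chosen with earlier results of these data known. Named were all member probe sets, list genes called or among the 4 smallest p of a list, 5 genes nearest to Sh2d1a, Gata3 and Foxp3. Of 3 neighbours per side and of the marker genes, some are named, chosen after their values were seen, as were Ptpn6, Inpp5d, Bcl6 and Zbtb16. Alternatives were the replicate block, no trend, robust variance, dim genes left out, renewed quantile normalization, median centring, array weights, other probe set choices and each array left out. Figures used matplotlib 3.10.9 in Python 3.11.15.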

Additional observations from a re-analysis of the deposited data

How the results depend on the processing

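The number of genes past the threshold was 274, 54 without the intensity trend and 585 with array quality weights, and lay between 62 and 270 with 1 array left out. The Sh2d1a change kept its direction in all 15 alternatives and its call in 13; the exceptions were the fit with no intensity trend (-0.35, adjusted p = 0.0733) and that without GATA3KO replicate 2 (-0.34, 0.0558), with the change between -0.39 and -0.32 over left-out arrays and adjusted p from 0.00327 to 0.0733 over all alternatives. With the replicate number as a replicate block the Sh2d1a change was -0.35 and its call held, with 368 genes past the threshold. Same-numbered arrays had deviations from their group means that correlated at 0.04, -0.02 and 0.07, so the numbers were not taken to pair mice. With the mean of both probe sets or the more variable one, Slamf6 was called (0.32 and 0.53, adjusted p = 0.0141 and 0.00579). Changes of members that were not called turned sign in 6 cases: Cd244a without GATA3KO replicate 3 (-0.067) and without WT replicate 2 (-0.079), Ly9 (-0.0087) and Slamf7 (-0.0014) without WT replicate 1, and Slamf1 with the mean of its probe sets (0.022) and with the most variable one (0.14). Slamf7 and Cd244a gave no value with dim genes left out, and both are limited by dim signal; over left-out arrays Cd244a lay between -0.079 and 0.21, Ly9 between -0.0087 and 0.15 and Slamf7 between -0.0014 and 0.18.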
